A study of Homo sapiens with 6 samples.

Results

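Translation initiation factors (eIFs) load the small ribosomal subunit, the initiator tRNA and the mRNA into a complex that finds the start codon. The 38 EIF genes described here encode the subunits and partners of eIF1, eIF1A, eIF2, eIF2B, eIF3, eIF4, eIF5 and eIF6. They were chosen by their role in initiation, by matching each NCBI Gene identifier of the count tables to its symbol, and make up 38 of the 25702 identifiers listed. All 38 were matched and all 38 passed the filter on low counts, so each was tested in every comparison.

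RNA was sequenced from K562, an erythroleukaemic cell line established from chronic myeloid leukaemia in blast crisis, 6 libraries in all. In the first group the cells had received the pCMV-HA expression plasmid without an insert (EV), and in the others the same plasmid carrying MXD3 or the fusion STIM1::MXD3. Each group had 2 libraries, described in the study as independent transfections, and no further treatment was given. MXD3 is a basic helix-loop-helix protein that pairs with MAX on E-boxes and opposes MYC, and STIM1 is a calcium sensor of the endoplasmic reticulum. The plasmids were delivered transiently and the labels mention no sorting, so every library is a bulk population whose share of transfected cells is not given library by library, and p-values measure only the spread between these libraries. Initiation factor genes are of interest in this setting because several of them, among them the cap-binding protein eIF4E and the helicase eIF4A, are classical MYC targets.

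The libraries held 53048343 to 63835779 counts each over 17375 to 17836 genes with at least 1 count. Levels are given as CPM (counts per 1000000 counts) scaled by the trimmed mean of M-values (TMM) method. MXD3 stood at 9.33 and 11.7 CPM in the EV libraries, at 2524 and 2162 CPM in the MXD3 libraries and at 1975 and 1849 CPM in the STIM1::MXD3 libraries, as the labels require. STIM1 stood at 471 and 453 CPM in the STIM1::MXD3 libraries against 159 to 205 CPM in the other 4. The K562 markers GATA1, TAL1, HBG1, HBG2, HBZ, LMO2 and KLF1 were found in every library, at 44.8 CPM or more. Of the markers of other cells, MS4A1, KRT5 and KRT14 had 0 counts, which allows up to 0.0566 CPM (3 counts in the smallest library), and CD3E, COL1A1 and PECAM1 did not exceed 6.79 CPM. The exception was EPCAM, an epithelial surface marker, at 77.9 to 101 CPM in all 6 libraries.

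The initiation factors together took between 1.24% and 1.33% of all counts in a library. The lowest count of any of them in any library was 1267 (EIF3C), for which counting alone gives a coefficient of variation of 2.81%. To compare levels between genes, CPM was divided by the length of the canonical transcript in kilobases. On that scale the EV libraries (mean ± SD, n = 2) held most of EIF1, which guards start codon choice, at 508 ± 26.6 CPM per kb. The eIF3 subunit EIF3K followed at 396 ± 46.9, the cap-complex helicase EIF4A1 at 379 ± 26.7, the eIF3 subunit EIF3E at 370 ± 32.9 and the helicase cofactor EIF4B at 349 ± 10.3 CPM per kb. The SDs of these last 4 overlap between neighbours, so their order is not settled. The lowest were EIF2B2, a subunit of the eIF2 exchange factor, at 7.14 ± 0.220, EIF3C at 9.33 ± 1.04 and the scaffold EIF4G3 at 15.5 ± 0.159 CPM per kb, and the median of the 38 was 90.4 CPM per kb.

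The order within the complexes was uneven. Among the 3 eIF2 subunits, EIF2S3 (gamma, which binds the initiator tRNA together with GTP) stood at 233 CPM per kb and EIF2S1 (alpha, the subunit phosphorylated under stress) at 27.6 CPM per kb. The 5 subunits of eIF2B, the exchange factor that recharges eIF2, all lay low, between 7.14 and 39.8 CPM per kb. The 13 eIF3 genes ran from 9.33 to 396 CPM per kb with a median of 146. The choice of length matters for this order. Per kilobase of coding sequence EIF1 was again the highest (3503 CPM per kb) but EIF3C was the lowest (9.91 CPM per kb), and EIF5A and EIF4H took the next places after EIF1 (891 and 852 CPM per kb).

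**Figure D1:**
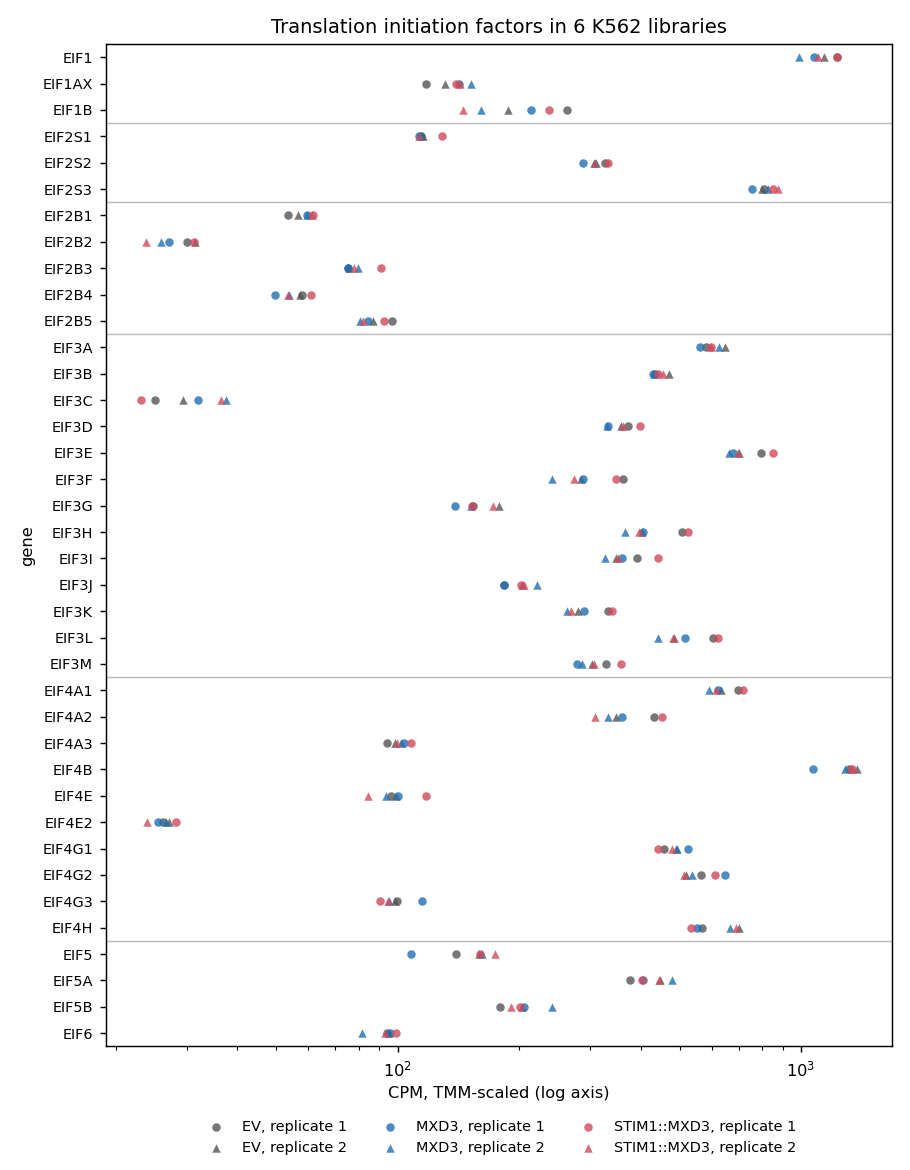
CPM of the 38 initiation factor genes (rows, separated by factor group) in each of the 6 libraries on a log axis, with colour for the plasmid and marker shape for the replicate number. The points of a gene lie close together against the distance between genes, which runs from EIF3C (23.1 CPM at the lowest) to EIF4B (1375 CPM at the highest).

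No initiation factor gene passed the test for a difference between plasmid groups in the main fit, which had no term for the replicate number. Tested with edgeR (quasi-likelihood F test, p adjusted over 15431 genes by Benjamini-Hochberg), 0 of the 38 passed an adjusted p of 0.05 in MXD3 against EV, 0 of 38 in STIM1::MXD3 against EV and 0 of 38 in STIM1::MXD3 against MXD3. Every adjusted p lay between 0.999 and 1.00, and values after ± beside a log2 fold change below are SEs. The background was as sparse, since of all genes tested 0.00648% passed with MXD3 and 0.00648% with STIM1::MXD3 against EV, in each case 1 gene, the transfected MXD3 itself, and 0.0% (0 genes) between the plasmids. STIM1, which the fusion plasmid also carries in part, did not pass (adjusted p = 0.359 against EV and 0.381 against MXD3, edgeR). At an unadjusted p under 0.05 the 38 genes gave 0 in all 3 comparisons, where 1.86% of all genes passed with MXD3 against EV, 0.953% with STIM1::MXD3 against EV and 1.01% between the plasmids. DESeq2 without a block also called 0 of the 38 in each comparison, and called 1 gene in all between the plasmids. With the replicate number as a block, DESeq2 called EIF3F in MXD3 against EV (adjusted p = 0.0355). The smallest adjusted p of the 38 in that comparison was 0.132 in edgeR with the block. Counts at an unadjusted p with the block differ from these and are given at the end.

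The intervals, from the fit without a block, show how large a difference that fit could have missed. The 95% interval of the log2 fold change lay within 1 of 0 for all 38 genes in each comparison, so a doubling or halving lay outside it for each gene taken singly. It lay within 0.5 of 0 for 33 of 38 genes in STIM1::MXD3 against EV, for 23 in MXD3 against EV and for 26 between the plasmids. In MXD3 against EV the median log2 fold change of the 38 was -0.088, with 11 of 38 above 0, beside 0.0011 over all genes. It was -0.033 without EV replicate 1 (all genes 0.017), -0.050 without MXD3 replicate 1 (all genes 0.0060) and -0.046 with library totals alone (all genes 0.043). In STIM1::MXD3 against EV it was 0.018, with 22 of 38 above 0, beside 0.0096 over all genes. That sign rests on single libraries, since the median was -0.040 (14 of 38 above 0) without STIM1::MXD3 replicate 1 and 0.078 (29 of 38) when replicate 2 was left out instead, and it was -0.016 (16 of 38) with GC content and length offsets. Between STIM1::MXD3 and MXD3 it was 0.092, with 30 of 38 above 0, beside 0.0083 over all genes, but 0.022 (24 of 38) without STIM1::MXD3 replicate 1 and 0.164 (29 of 38) with replicate 2 left out. Of all genes tested, 50.2% lay above 0 with MXD3 against EV, 52.1% with STIM1::MXD3 against EV and 52.1% between the plasmids. These 3 comparisons share libraries, so their medians are not independent of one another. A bulk library cannot tell fewer expressing cells from less RNA per cell.

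**Figure D2:**
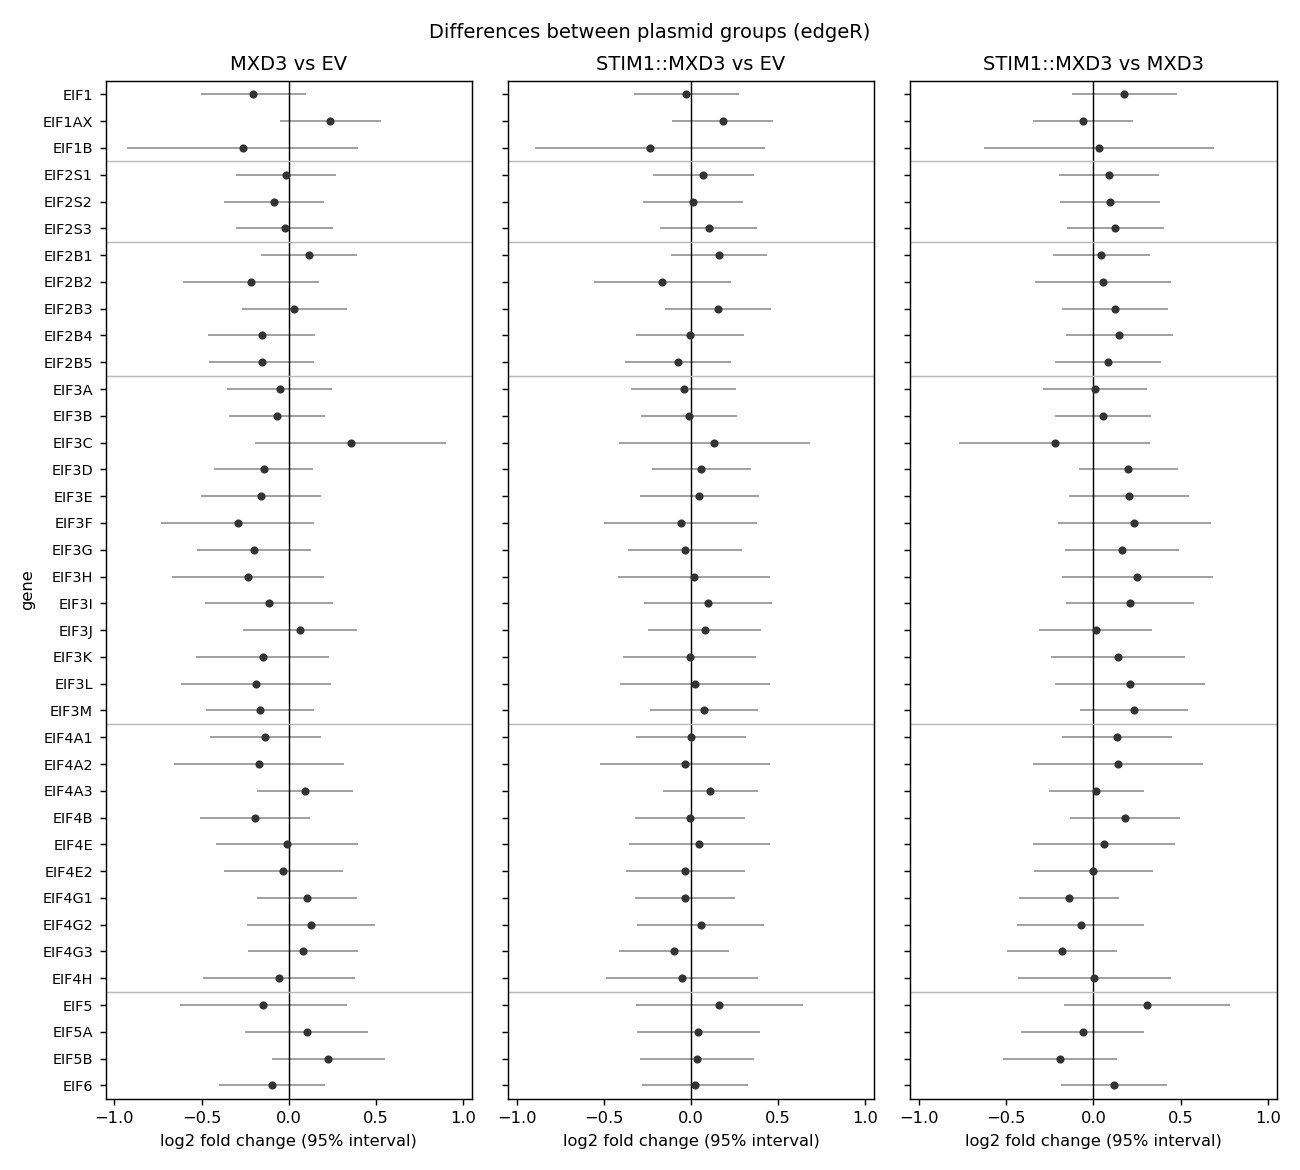
Log2 fold change (points) with its 95% interval from edgeR without a block (lines) for the 38 genes in the 3 comparisons, with factor groups separated by grey lines and 0 marked in black. All 38 intervals include 0 in every panel, and the 13 eIF3 genes lie mostly left of 0 with MXD3 against EV (11 of 13) and mostly right of 0 with STIM1::MXD3 against MXD3 (12 of 13).

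Counts of genes whose libraries did not overlap were read against all genes. With MXD3 both libraries lay below both EV libraries for 11 of the 38 (EIF1, EIF2B2, EIF2B4, EIF2B5, EIF3B, EIF3D, EIF3E, EIF3G, EIF3M, EIF4A1 and EIF4B), where 14.8% of all genes did so, and above for 6 of 38 (EIF1AX, EIF2B1, EIF3C, EIF4A3, EIF4G1 and EIF5B), where 16.2% did. With STIM1::MXD3 both libraries lay above both EV libraries for 6 of 38 (EIF1AX, EIF2B1, EIF2B3, EIF2S3, EIF4A3 and EIF5) beside 12.0% of all genes, and below for 1 (EIF4G3) beside 10%. Between the plasmids, STIM1::MXD3 lay above MXD3 for 9 of 38 (EIF1, EIF2B1, EIF2S3, EIF3B, EIF3D, EIF3E, EIF3G, EIF3M and EIF4B) beside 10.9% of all genes, and below for 3 (EIF4G1, EIF4G3 and EIF5B) beside 10.2%. Genes of 1 complex and 1 library share their errors, so these counts carry no test.

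Comparing libraries of the same replicate number gave a like picture. With MXD3 against EV the log2 ratio was below 0 for both numbers in 22 of 38 genes, where 31.5% of all genes had it so, and above 0 for both in 9, where 30.6% had. With STIM1::MXD3 against EV it was below 0 for both numbers in 8 (all genes 25.1%) and above 0 in 11 (all genes 27.1%). Between STIM1::MXD3 and MXD3 it was above 0 for both numbers in 18 (all genes 27.5%) and below 0 in 7 (all genes 26.1%).

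The eIF3 complex, the large scaffold that keeps the small ribosomal subunit from joining the large one early and bridges it to eIF4G, supplied 11 of these 22 genes and 10 of these 18. With MXD3 against EV its 13 genes had a median log2 fold change of -0.150, 2 of 13 above 0, and the 11 were below EV for both replicate numbers. Between STIM1::MXD3 and MXD3 the median was 0.200, with 12 of 13 above 0, and with STIM1::MXD3 against EV it was 0.020. The summed level of the 13 genes was 5072 and 4691 CPM in EV, 4490 and 4382 CPM in MXD3 and 5298 and 4602 CPM in STIM1::MXD3. Both MXD3 libraries lay below the other 4, while the STIM1::MXD3 libraries lay on either side of the EV libraries. Single libraries move these medians. Without EV replicate 1 the MXD3 median was -0.062, and the median between the plasmids was 0.052 when the first STIM1::MXD3 library was left out and 0.29 when the second was. The median in STIM1::MXD3 against EV ran from -0.044 to 0.122 over the libraries left out, so its sign is not settled. The median kept its sign against EV with MXD3 and between the plasmids under TMM, size factors and library totals alike.

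Of the eIF3 genes, EIF3F, an MPN-domain subunit of the core (GRCh37 chromosome 11, 7991798 to 8023409, plus strand), stood at 363 and 285 CPM in EV, 288 and 241 CPM in MXD3, and 347 and 274 CPM in STIM1::MXD3. The groups overlapped, since EV replicate 2 lay just under MXD3 replicate 1, and replicate 2 was lower than replicate 1 in each group. Its log2 fold change was -0.29 ± 0.19 (SE) in MXD3 against EV, with a 95% interval from -0.73 to 0.15, and the log2 ratio of same-numbered libraries was -0.33 and -0.24. That interval is from the fit without a block. With the replicate number as a block, EIF3F was called by DESeq2 (adjusted p = 0.0355) but not by edgeR (adjusted p = 0.132).

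EIF3M, a PCI-domain subunit of the core (chromosome 11, 32605344 to 32627810, plus strand), stood at 328 and 304 CPM in EV, 278 and 286 CPM in MXD3, and 358 and 306 CPM in STIM1::MXD3. Both MXD3 libraries lay below the other 4. Its difference between STIM1::MXD3 and MXD3 (log2 fold change 0.23 ± 0.13) had the smallest p of the 38 in that comparison (0.116 unadjusted, 1.00 as the edgeR adjusted p). EIF3D, the subunit that can itself bind the cap (chromosome 22, 36906902 to 36925231, minus strand), stood at 373 and 358 CPM in EV, 332 and 330 CPM in MXD3, and 400 and 361 CPM in STIM1::MXD3. The MXD3 libraries again lay below the rest, with a log2 fold change of 0.20 ± 0.12 between the plasmids. EIF3E, which lies beside EIF3D in the complex, gave 0.20 ± 0.14 in the same comparison.

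EIF3G, an RNA-binding subunit at the mRNA entry side (chromosome 19, 10225690 to 10230594, minus strand), stood at 154 and 179 CPM in EV, 138 and 152 CPM in MXD3, and 152 and 172 CPM in STIM1::MXD3. Both MXD3 libraries lay below the lowest of the others, replicate 2 only just (151.6 against 152.4 CPM). The log2 fold change in MXD3 against EV was -0.20 ± 0.14. The eIF3 genes with the smallest p in STIM1::MXD3 against EV were EIF3I (0.098 ± 0.15), EIF3J, a loosely held subunit that helps recycling (0.079 ± 0.14), and EIF3C (0.13 ± 0.23). The other eIF3 genes with MXD3 against EV gave -0.24 (EIF3H), -0.19 (EIF3L), -0.16 (EIF3E), -0.15 (EIF3K), -0.11 (EIF3I), -0.067 (EIF3B), -0.052 (EIF3A) and 0.066 (EIF3J). None of the eIF3 genes had libraries of STIM1::MXD3 and EV that did not overlap.

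EIF3C, a core scaffold subunit, has a near-identical copy, EIF3CL, on the same chromosome, and its counts stand apart. EIF3C (chromosome 16, 28699879 to 28747048, plus strand) stood at 25.0 and 29.3 CPM in EV, 32.0 and 37.5 CPM in MXD3, and 23.1 and 36.4 CPM in STIM1::MXD3, and was the lowest eIF3 gene per kilobase on either length. Its log2 fold change was 0.35 ± 0.23 with MXD3 against EV, opposite in sign to most of the complex. EIF3CL (chromosome 16, 28390900 to 28415162, minus strand) had 319 and 349 counts in EV, 2888 and 342 counts in MXD3, and 317 and 354 counts in STIM1::MXD3. A single library, MXD3 replicate 1, thus held 45.0 CPM of EIF3CL while the other 5 held 5.63 to 6.26 CPM. The unadjusted p of EIF3CL, 0.0307 with MXD3 against EV and 0.0269 between the plasmids, rests on that library (the log2 ratio of the libraries numbered 2 was 0.078 and -0.11), and its adjusted p was 0.999 and 1.00 (edgeR). How reads that match both copies were counted is not given in the sources used here, so the values of both genes are uncertain.

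**Figure D3:**
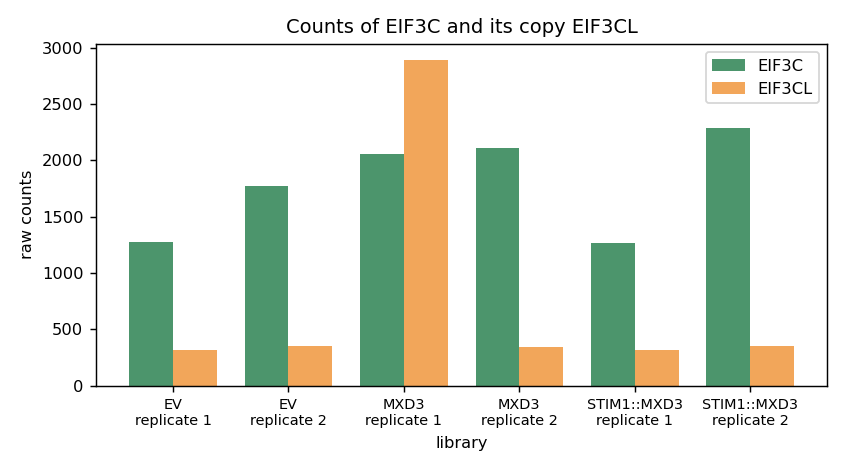
Raw counts of EIF3C and EIF3CL (bars) in each of the 6 libraries. EIF3CL stands at 317 to 354 counts in 5 libraries and at 2888 in MXD3 replicate 1, while EIF3C runs from 1267 to 2290.

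The factors that control scanning for the start codon lay on either side of EV. EIF1AX encodes eIF1A, which opens the small subunit for scanning (chromosome X, 20142643 to 20159956, minus strand). It stood at 117 and 131 CPM in EV, 142 and 151 CPM in MXD3, and 139 and 143 CPM in STIM1::MXD3. All 4 libraries with an MXD3-bearing plasmid lay above both EV libraries, with log2 fold changes of 0.24 ± 0.12 for MXD3 and 0.18 ± 0.12 for STIM1::MXD3 against the same EV libraries. These had the smallest unadjusted p of the 38 in each comparison, 0.0904 and 0.182, and adjusted p of 0.999 and 1.00 (edgeR). Between the plasmids EIF1AX gave -0.058 ± 0.12.

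EIF1 (chromosome 17, 39845137 to 39848920, plus strand) stood at 1232 and 1144 CPM in EV, 1076 and 988 CPM in MXD3, and 1229.7 and 1102 CPM in STIM1::MXD3. The MXD3 libraries lay below the other 4, with log2 fold changes of -0.20 ± 0.13 against EV and 0.18 ± 0.13 from MXD3 to STIM1::MXD3, and with STIM1::MXD3 against EV the value was -0.027 ± 0.13. EIF1B, its close paralogue, ran from 145 to 262 CPM and split by replicate number, since all 3 libraries numbered 1 lay above all 3 numbered 2. Within each number EIF1B was also below EV with both plasmids. The log2 ratios of same-numbered libraries were -0.30 and -0.22 for MXD3, and -0.14 and -0.37 for STIM1::MXD3. Its log2 fold changes were -0.26 ± 0.28, -0.23 ± 0.28 and 0.031 ± 0.28 for MXD3 against EV, STIM1::MXD3 against EV and between the plasmids.

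The 3 subunits of eIF2, the factor that carries the initiator tRNA, lay close to EV with both plasmids, and the largest of their log2 fold changes in any comparison was 0.12 (EIF2S3 between the plasmids). With MXD3 against EV their median log2 fold change was -0.022, and the values were -0.082 ± 0.12 for EIF2S2, the beta subunit, -0.022 ± 0.12 for EIF2S3 and -0.017 ± 0.12 for EIF2S1. The last pair turned to above 0 when libraries were scaled by their totals alone (0.021 and 0.025). Both values still lay below the median over all genes in that setting, which was 0.043. In STIM1::MXD3 against EV they were 0.10 ± 0.12 for EIF2S3, 0.071 ± 0.12 for EIF2S1 and 0.014 ± 0.12 for EIF2S2. EIF2S3 was the member of eIF2 whose STIM1::MXD3 libraries (854 and 875 CPM) lay above those of EV (808 and 802 CPM) and of MXD3 (758 and 829 CPM). Between the plasmids the 3 gave 0.12 ± 0.12 (EIF2S3), 0.096 ± 0.12 (EIF2S2) and 0.088 ± 0.12 (EIF2S1).

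The eIF2B subunits had a median of -0.155 with MXD3 against EV. EIF2B2 (beta) gave -0.22 ± 0.17, EIF2B5 (epsilon, the catalytic subunit) -0.16 ± 0.13 and EIF2B4 (delta) -0.16 ± 0.13, each with both MXD3 libraries below both EV libraries, whereas EIF2B1 (alpha) stood at 53.3 and 56.6 CPM in EV and at 59.6 and 59.4 CPM in MXD3. The median in STIM1::MXD3 against EV was -0.006, and EIF2B1 gave 0.16 ± 0.12, EIF2B3 (gamma) 0.16 ± 0.13 and EIF2B2 -0.16 ± 0.17. Between the plasmids all 5 values lay above 0, led by EIF2B4 (0.15 ± 0.13), EIF2B3 (0.12 ± 0.13) and EIF2B5 (0.082 ± 0.13).

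The 10 eIF4 genes, which recognise the cap and unwind the 5′ end of the mRNA, had medians of -0.021, -0.021 and 0.011 for MXD3 against EV, STIM1::MXD3 against EV and between the plasmids. EIF4B (chromosome 12, 53400066 to 53435999, plus strand) stood at 1318 and 1375 CPM in EV, 1069.5 and 1287 CPM in MXD3, and 1335 and 1341 CPM in STIM1::MXD3. The MXD3 libraries lay below the other 4, replicate 1 by more than replicate 2, with log2 fold changes of -0.19 ± 0.13 against EV and 0.18 ± 0.13 from MXD3 to STIM1::MXD3. EIF4A1 gave -0.13 ± 0.13 with MXD3 against EV and ran from 593 to 717 CPM. Its close paralogue EIF4A2 ran from 309 to 453 CPM and gave -0.17, and how reads that match both were counted is likewise not known.

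The 3 eIF4G scaffold genes had log2 fold changes above 0 with MXD3 against EV (0.11, 0.13 and 0.082 for EIF4G1, EIF4G2 and EIF4G3). These rest mostly on MXD3 replicate 1. In that gene order the log2 ratios were 0.196, 0.197 and 0.201 between the libraries numbered 1. Between those numbered 2 they were 0.015, 0.048 and -0.049. EIF4G1, the main bridge between the cap complex and eIF3, stood at 457 and 489 CPM in EV, 523 and 494 CPM in MXD3 and 443 and 479 CPM in STIM1::MXD3, and its log2 fold change was 0.11 ± 0.12 for MXD3 against EV and -0.14 ± 0.12 between the plasmids. EIF4G3 gave -0.18 ± 0.13 between the plasmids and -0.099 ± 0.13 with STIM1::MXD3 against EV. EIF4G2, which lacks the cap-binding protein's docking site, gave 0.055 ± 0.15, and EIF4A3, the helicase that anchors the exon junction complex, 0.11 ± 0.12 in that last comparison. EIF4E itself ran from 84.2 to 117 CPM, both extremes in the STIM1::MXD3 group, and its log2 fold changes were -0.011, 0.048 and 0.059 in the order MXD3 against EV, STIM1::MXD3 against EV, and between the plasmids. The remaining eIF4 genes were EIF4E2, a relative of the cap-binding protein, with -0.032 against EV for either plasmid, and EIF4H, a cofactor of the helicase, with -0.056 for MXD3 and -0.051 for STIM1::MXD3.

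The late factors included the gene with the widest gap between replicates of MXD3. EIF5, the GTPase activator of eIF2 (chromosome 14, 103799881 to 103811362, plus strand), stood at 140 and 159 CPM in EV, 108 and 162 CPM in MXD3, and 160 and 174 CPM in STIM1::MXD3. MXD3 replicate 1 was the lowest of the 6, and without it the log2 fold change against EV turned from -0.15 ± 0.20 to 0.13. Between the plasmids EIF5 gave 0.31 ± 0.20, and with STIM1::MXD3 against EV 0.16 ± 0.20.

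EIF5B, the GTPase that joins the ribosomal subunits (chromosome 2, 99953834 to 100017789, plus strand), stood at 179 and 203 CPM in EV, 206 and 242 CPM in MXD3, and 201 and 191 CPM in STIM1::MXD3. The MXD3 libraries lay above the other 4, with log2 fold changes of 0.23 ± 0.14 against EV and -0.19 ± 0.14 from MXD3 to STIM1::MXD3, and with STIM1::MXD3 against EV it was 0.034 ± 0.14. EIF6, which keeps the large subunit from joining early, gave -0.095 ± 0.13 with MXD3 against EV and 0.12 ± 0.13 between the plasmids. EIF5A, the hypusinated factor that also serves elongation and has copies elsewhere in the genome, ran from 377 to 479 CPM and gave 0.042 ± 0.15 with STIM1::MXD3 against EV.

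Differences between replicate numbers were set beside those between plasmid groups. The median absolute log2 ratio of replicate 2 to replicate 1, each taken within 1 group, was 0.141 over the 38 genes, beside median absolute fold changes of 0.138 for MXD3 against EV, 0.049 for STIM1::MXD3 against EV and 0.129 between the plasmids. A ratio of single libraries carries more spread than one of group means, so these values do not show which kind of difference was larger. Replicate 2 was higher than replicate 1 in all 3 groups for 10 of 38 genes (all genes 28.6%) and lower in all 3 for 13 (all genes 30.2%), shares close to the background. The mean log2 ratio was -0.54 for EIF1B, -0.33 for EIF4A2, -0.32 for EIF3F and -0.30 for EIF3L, and it was 0.37 for EIF3C, 0.31 for EIF4H, 0.30 for EIF5 and 0.21 for EIF5A. Of the 13 eIF3 genes 7 were lower in replicate 2 of every group (EIF3D, EIF3E, EIF3F, EIF3H, EIF3I, EIF3K and EIF3L) and 5 higher (EIF3A, EIF3B, EIF3C, EIF3G and EIF3J). The part of what the numbers stand for in these differences was not tested.

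**Figure D4:**
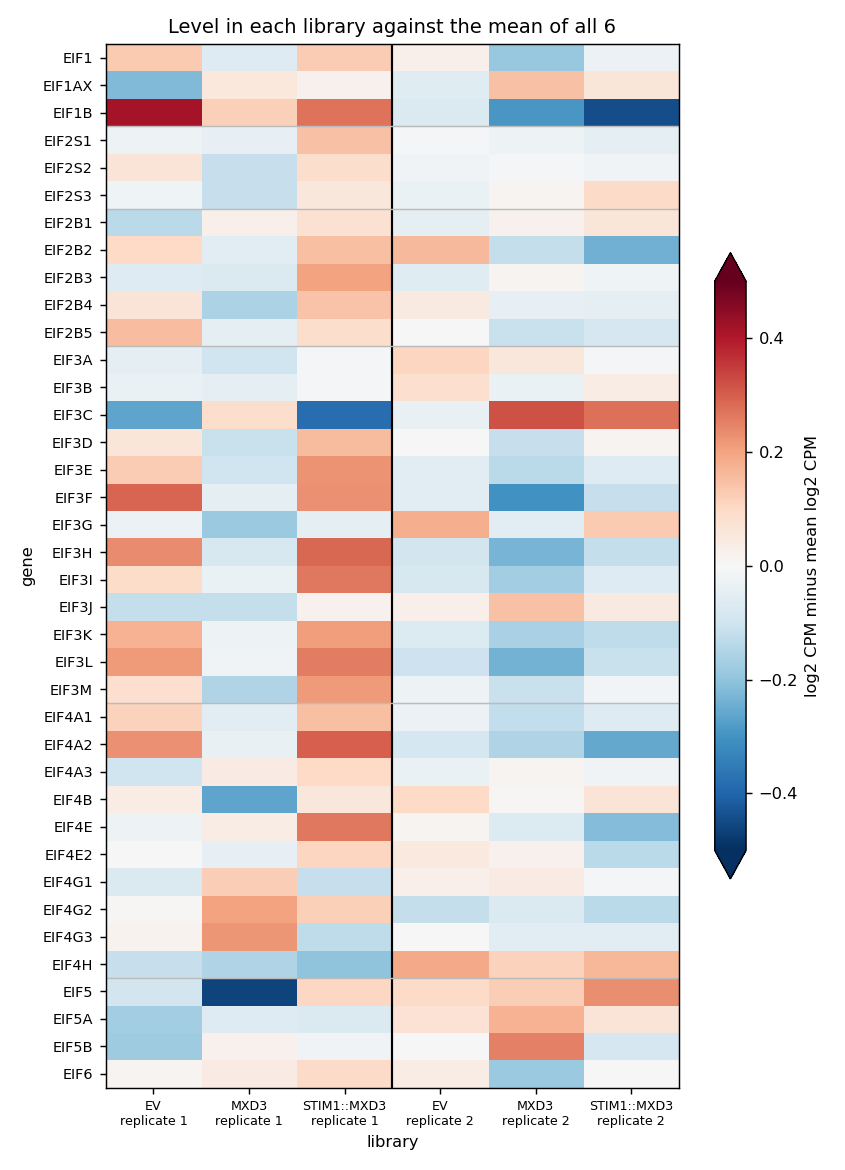
Log2 CPM of each gene in each library minus its mean over the 6 libraries (colour, clipped at 0.5 either way), with the 3 libraries numbered 1 left of the black line and the 3 numbered 2 right of it. The eIF3 genes from EIF3D to EIF3L are mostly red in EV and STIM1::MXD3 replicate 1, and EIF1B is red in all 3 libraries numbered 1 and blue in all 3 numbered 2.

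Because MXD3 and MYC dimers bind E-boxes, the promoters of the initiation factors were searched for the canonical E-box CACGTG, a word that reads the same on both strands. The promoter windows, from RefSeq on GRCh38.p14, held 250 bases before and 50 bases after each annotated start and were found for 32 of the 38 genes. EIF2S2, EIF3A, EIF3E, EIF3G, EIF3H and EIF3L had no entry. The word was present for 9 of the 32 genes (28.1%), against 12.3% of the 11468 tested genes with a window and 8.77% of all 27305 genes in the table. The 9 were EIF1B, EIF2B3, EIF3F, EIF3K, EIF4A3, EIF4B, EIF4E, EIF4G1 and EIF4H. A gene was counted if any of its windows held the word. For EIF4G1 every match lay in the same window, and the windows at its other annotated starts held none. Stretches of 30 bases are given for EIF4E and EIF4G1, which carry the word 2 times each, for EIF3F and EIF4B, whose CPM is given above, and for EIF1B. They run 5′ to 3′ on the strand of the gene with the E-box in capitals, and all lie before the start.
EIF4E distal, chr4:98929341-98929370, minus strand: ctacccatcggcCACGTGaccagtcctttt
EIF4E proximal, chr4:98929188-98929217, minus strand: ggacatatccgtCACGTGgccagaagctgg
EIF4G1 distal, chr3:184314450-184314479, plus strand: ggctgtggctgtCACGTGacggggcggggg
EIF4G1 proximal, chr3:184314527-184314556, plus strand: ccctgcgccggtCACGTGggggcgccggct
EIF3F, chr11:7987257-7987286, plus strand: aaagctctagctCACGTGgtgtatattcag
EIF4B, chr12:53006422-53006451, plus strand: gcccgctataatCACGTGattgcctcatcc
EIF1B, chr3:40309641-40309670, plus strand: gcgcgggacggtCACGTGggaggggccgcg

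The word lay 16 bases before the start for EIF4B, 48 for EIF1B, 62 for EIF3F and 66 and 219 for EIF4E. With MXD3 against EV the 9 genes with the E-box had a median log2 fold change of -0.056 (3 of 9 above 0) and the 23 with a window and no E-box -0.067 (8 of 23 above 0). With STIM1::MXD3 against EV the medians were -0.009 (3 of 9) and 0.042 (15 of 23), and between the plasmids 0.059 (8 of 9) and 0.082 (16 of 23). A match is a word in the sequence and not a measured binding site.

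Members were also grouped by known control, with no test of the difference between groups. The 10 members commonly listed as MYC targets (EIF1AX, EIF2S1, EIF2S2, EIF3B, EIF3D, EIF3J, EIF4A1, EIF4E, EIF4G2 and EIF4H) had medians of -0.037 with MXD3 against EV, 0.052 with STIM1::MXD3 against EV and 0.057 between the plasmids, beside -0.148, 0.005 and 0.124 for the other 28. Members EIF3E, EIF3F, EIF3H and EIF4B are counted among the terminal oligopyrimidine mRNAs, whose translation follows mTOR activity. These 4 had medians of -0.214, 0.004 and 0.219 in the same order, beside -0.062, 0.021 and 0.071 for the other 34. That division is not the one in the sequence. Of the 32 members with a promoter window, 7 (21.9%) had a pyrimidine run at an annotated start, against 7.21% of tested genes. EIF3F and EIF4B were among them, but so were EIF2S3, EIF3D, EIF3K, EIF3M and EIF4A2, here counted with the 34. EIF3E and EIF3H had no window. No member of either list passed an adjusted p of 0.05 in the edgeR fit without a block.

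The genes that act on the initiation factors were read from 4 further lists, and 0 of their genes passed in any comparison (edgeR without a block, adjusted). At an unadjusted p under 0.05 in that fit, 1.86% of all genes passed with MXD3 against EV, 0.953% with STIM1::MXD3 against EV and 1.01% between the plasmids. The list of eIF2 kinases and phosphatase subunits (10 genes) gave 2 genes at an unadjusted p under 0.05, both with MXD3 against EV. PPP1R15A, the stress-induced subunit that directs dephosphorylation of eIF2 alpha, had a mean of 336 CPM in MXD3 against 523 CPM in EV (log2 fold change -0.64 ± 0.25), and PPP1R15B, its constitutive relative, 158 against 198 CPM (-0.33 ± 0.13). The values for STIM1::MXD3 against EV were -0.59 ± 0.25 and -0.17 ± 0.13. Between the plasmids PPP1R15B gave 0.16 ± 0.13 and the phosphatase subunit PPP1CC 0.23 ± 0.20.

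In the list of cap-binding inhibitors and their kinases (13 genes) 0 reached an unadjusted p under 0.05. EIF4EBP2, which sequesters eIF4E, gave 0.22 ± 0.12 with MXD3 and 0.13 ± 0.12 with STIM1::MXD3 against EV. The S6 kinase gene RPS6KB1 gave 0.28 ± 0.17 with MXD3 against EV. EIF4EBP3 gave -0.97 ± 0.90 with STIM1::MXD3 against EV, but it had only 12 and 19 counts in EV and 2 and 15 counts in STIM1::MXD3. Between the plasmids LARP1, which represses terminal oligopyrimidine mRNAs, gave -0.17 ± 0.12 and the mTOR partner RPTOR -0.26 ± 0.25.

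In the list of accessory initiation factors (17 genes) EIF2D, which can deliver tRNA without eIF2, reached an unadjusted p under 0.05 besides EIF3CL. Its mean was 104 CPM in EV, 86.0 CPM in MXD3 and 105 CPM in STIM1::MXD3, with log2 fold changes of -0.28 ± 0.11 for MXD3 against EV and 0.29 ± 0.11 between the plasmids. In the fusion group against EV the recycling factor ABCE1 gave 0.21 ± 0.13 and DHPS, which starts hypusine formation on eIF5A, -0.17 ± 0.14.

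In the list of elongation and release factors (10 genes) EEF1G, a subunit of the elongation factor exchange complex, averaged 2056 CPM in MXD3 against 2517 CPM in EV (-0.29 ± 0.12, unadjusted p under 0.05), and EEF2, the translocase, gave -0.25 ± 0.14. The release factor ETF1 gave 0.19 ± 0.12 and EEF1E1 0.13 ± 0.11 in STIM1::MXD3 against EV. The median of the 10 with MXD3 against EV was -0.111, with 4 of 10 above 0. Between the plasmids, a comparison that shares the MXD3 libraries, all 10 values were above 0, where 52.1% of all genes were. The median there was 0.156, led by EEF1G (0.27 ± 0.12) and EEF1B2 (0.24 ± 0.12). The adjusted p of each of these was 0.999 or above.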

How the data were processed

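The authors deposited 1 table per library with raw counts under NCBI Gene identifiers. RNA was poly A selected. The submitters' processing notes name HISAT2 2.2.1, featureCounts 2.0.1 and hg19. The annotation and the use of strand are not given in the sources used here, so counts of overlapping genes and of close copies are uncertain. Each library took its group and replicate number from its label.

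Of 25702 identifiers 23696 (92.2%) were matched to a symbol, and the rest, with 0.225% to 0.276% of the counts of a library, were kept in library sizes. filterByExpr kept 15431 genes. All 6 libraries (53048343 to 63835779 counts, a depth at which the lowest member count was 1267) entered 1 fit of the edgeR 4.0.16 quasi-likelihood test in R 4.3.3, with TMM scaling, 1 coefficient per group and no covariate. Tests were two-sided, with Benjamini-Hochberg adjustment over all genes and a threshold of 0.05. The 95% intervals came from the moderated SE. The procedure was tested on simulated counts with larger changes than those of the members and no shared effect of replicate number. That run therefore does not bear on small differences. Positions and lengths came from GENCODE v44 lifted to GRCh37, and promoters from RefSeq on GRCh38.p14.

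The 38 members and the gene lists were written from general knowledge with earlier results of these data known. Named with full statistics were, per comparison and factor group, the 3 members with the smallest p. CPM per library was given for the 10 members with the smallest p over the 3 comparisons and for close copies, and of each further list the 2 genes with the smallest p per comparison were named. EIF2S3, EIF2B1, EIF4G1 and EIF4E were given CPM outside this rule, after their values were seen. Other settings were RLE size factors, library totals, other filters on low counts, DESeq2 1.42.0, the replicate number as a block, 4 libraries compared alone, offsets for GC content and length, counts divided by 2, and each library left out. Some marker genes of the cell type check are not reported here.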

Additional observations from a re-analysis of the deposited data

How the results depend on the processing

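No initiation factor gene was called under any setting except 1 (EIF3F, lower with MXD3 against EV) under DESeq2 with the replicate number as a block (adjusted p = 0.0355, and 0.132 in edgeR with the block). The numbers 1 and 2 are in the labels, which do not say what they share. Library deviations from the group mean, taken between equal numbers, had r = 0.270 (EV and MXD3), 0.364 (EV and STIM1::MXD3) and 0.450 (MXD3 and STIM1::MXD3) across 15431 genes, and r = 0.621, 0.707 and 0.792 over the 10250 genes averaging 5 CPM or more, a level every member exceeded. Genes are not independent replicates. With the replicate block edgeR called 45 genes in MXD3 against EV (1 without), 3 in STIM1::MXD3 against EV (1 without) and 1 between the plasmids (0 without). In the same order 10, 2 and 10 of the 38 reached an unadjusted p under 0.05, where 0 had. The share of all genes at that p with the block is not given here, so these counts are not read as a result about the 38. DESeq2 with the block called 243, 29 and 11 genes in that order, GC and length offsets with the block 34, 3 and 1, and DESeq2 alone 3, 3 and 1. Without a filter on low counts 2 genes were called in STIM1::MXD3 against EV and 1 between the plasmids. Leaving out 1 library gave 1 to 2 genes in MXD3 against EV.

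The median of the 38 with MXD3 against EV was -0.046 with library totals (15 of 38 above 0), beside 0.043 over all genes, and -0.092 to -0.033 when each library was left out. Some directions turned. EIF2S2 with STIM1::MXD3 against EV was -0.032 with GC and length offsets (also with the block, -0.032). EIF1B between the plasmids was -0.010 with library totals (median over all genes -0.022) and -0.00018 under DESeq2 with the block. With the offsets it was -0.062 without the block and -0.078 with it. EIF2S3 and EIF2S1 with MXD3 against EV were 0.021 and 0.025 with library totals, where the median over all genes was 0.043. Leaving out single libraries, the values with STIM1::MXD3 against EV ran from -0.63 to 0.072 for EIF1B, -0.11 to 0.043 for EIF1, -0.026 to 0.16 for EIF2S1, -0.040 to 0.058 for EIF2S2, -0.37 to 0.011 for EIF2B2, -0.075 to 0.25 for EIF3I, -0.24 to 0.42 for EIF3C, -0.076 to 0.17 for EIF4G2, -0.074 to 0.17 for EIF5A and -0.053 to 0.13 for EIF5B. With MXD3 against EV they ran from -0.49 to 0.00033 for EIF1B, -0.097 to 0.054 for EIF2S3, -0.035 to 0.0042 for EIF2S1, -0.20 to 0.0048 for EIF6 and -0.48 to 0.13 for EIF5, and between the plasmids from -0.37 to 0.34 for EIF1B, -0.011 to 0.17 for EIF2S1 and -0.0087 to 0.16 for EIF2B5. The cause of these turns was not tested.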
